A study of Mus musculus with 2 samples.

Results

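The nuclear end of canonical Wnt signalling was examined in osteoblastic cells that carry either 1 or no functional copy of Ebf2. The 10 genes chosen were Axin2, Lef1, Tcf7, Tcf7l1, Tcf7l2, Nkd1, Nkd2, Ccnd1, Myc and Apcdd1, and every probe set whose platform annotation gave exactly 1 of these symbols was taken. A probe set is a group of short oligonucleotides on the array that reads 1 transcript. This gave 28 of the 45101 probe sets on the array and 9 of the 10 genes, because no probe set used here carried Tcf7 as its only symbol. In all, 18194 genes had such a probe set.

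The cells came from the tibia and femur of C57Bl/6 mouse embryos at stage E18.5. In both groups the Ebf2 locus carries a lacZ marker. Cells of the heterozygote (Ebf2+/-) and the knockout (Ebf2-/-) could therefore be sorted by the fluorescence that beta-galactosidase releases from its substrate FDG. Whether the sort took like cells from both genotypes was not tested. The sorted cells were expanded in alpha MEM with 10% serum without passaging, so the values describe a cultured, marker-sorted preparation. There was 1 array for each genotype. The labels give 3 mice per genotype without saying whether their RNA was pooled, and a wild-type group was not analysed here. Every value below is therefore a single measurement with no replicate check and no p-value, and a difference between the arrays cannot be told apart from a difference between cultures. In cultures of mixed cells, fewer cells of a type and less RNA per cell cannot be told apart either.

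In canonical Wnt signalling a secreted Wnt protein binds Frizzled and LRP receptors at the cell surface, which stops the destruction complex from marking beta-catenin for degradation. Beta-catenin then enters the nucleus and joins DNA-binding proteins of the TCF/LEF family, encoded by Tcf7, Lef1, Tcf7l1 and Tcf7l2, which otherwise hold their target genes silent with Groucho/TLE co-repressors. Among the targets, Axin2, Nkd1, Nkd2 and Apcdd1 encode proteins that restrain the pathway, whereas Ccnd1 (cyclin D1) and Myc promote cell growth and division. In bone, the pathway is known to favour osteoblast formation and to raise osteoprotegerin, the inhibitor of osteoclasts.

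In these cells the 9 genes did not lie to one side. By the brightest probe set of each gene, Tcf7l2, Nkd1, Apcdd1 and Myc read higher on the knockout array, and Ccnd1, Tcf7l1, Axin2, Lef1 and Nkd2 read lower. Tcf7l2 was the only one past 2-fold, at 2.95-fold higher. Thus 1 of 9 measured members was at least 2-fold higher, against a background of 6.30% of the 11785 measured genes (742 genes), and 0 were at least 2-fold lower, against 3.46% (408 genes). The median log2 ratio of knockout over heterozygote was -0.46 for the members and 0.03 for all measured genes. That median falls beside a gap between the 4 genes that read higher and the 5 that read lower, and it was 0.0012 for the 8 members that exceeded both floors.

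The background level of each array was the 95th percentile of 86 probe sets of sensory receptor genes (taste, olfactory and vomeronasal), which gave a floor of 17.8 for the heterozygote and 23.8 for the knockout. A gene or probe set with a signal over the floor of either array counts as measured here, and signals under the floor were replaced by it before a ratio was formed. Where only 1 array was above its floor the ratio is a bound and is written "at least". Such a bound can only point to the array above its floor, so its direction is no support. Different probe sets of 1 gene gave log2 ratios with a pooled SD of 0.44 (a factor of 1.36, over 4119 genes). This is a spread between probe sets above the floor on both arrays. It is not the error of a signal and leaves out animals and cultures. The 3' over 5' signal ratio of the beta-actin control, a sign of RNA integrity, was 1.97 on the Ebf2+/- array against 2.79 on the other, and that of Gapdh was 1.30 against 1.60. The part of RNA integrity in the ratios was not tested. Ebf2 itself was dim and its probe sets did not give one direction: the brightest read 24.9 and 20.6 and exceeded the floor of the heterozygote alone, whereas another read 14.4 and 25.1 and exceeded that of the knockout alone. The last was below both floors (13.7 and 14.4). These signals do not check the labels, since neither difference is large against the floor and they oppose each other. Of 9 osteoblast markers with a probe set, 6 were measured. By the brightest probe set 5 of them read higher in the knockout and 1, the osteoblast transcription factor Sp7, lower (83.7 and 53.3). Col1a1, the main bone collagen, read 5478 and 12784 by one probe set and 1375 and 982 by the other, and Ibsp, Dmp1 and Phex, which mark mineralizing cells, were below the floor on both arrays.

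The sequences upstream of the genes' transcription starts were searched for the letters that TCF/LEF and EBF proteins are known to bind. The RefSeq promoter table (GRCm38.p6) held 12 windows for 7 of the genes, several of them overlapping or alternative starts of 1 gene, and no window was used for Ccnd1, Myc and Apcdd1. In the 250 bases before each start, the letters CTTTG followed by AA, AT, TA or TT, on either strand, were found in 2 of the 12 windows, against 14.8% of all 32851 windows. The EBF core CCCNNGGG was in 1 of the 12 (11.8% of all windows), and the full EBF palindrome, which is this core with a T before it and an A after it, was in 0 (0.779%). The 3 windows with a match are shown first, and the windows of Nkd1 and Nkd2, a paralogous pair whose probe sets differed in direction, follow. Capitals mark the matched letters, and each sequence reads 5′ to 3′ on the gene's own strand and ends at the base before the start.
Tcf7l2, second start: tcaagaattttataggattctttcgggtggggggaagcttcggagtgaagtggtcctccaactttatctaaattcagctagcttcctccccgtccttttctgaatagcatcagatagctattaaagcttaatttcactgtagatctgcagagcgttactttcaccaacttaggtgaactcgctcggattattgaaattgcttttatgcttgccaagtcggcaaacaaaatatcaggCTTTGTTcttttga
Lef1, last start: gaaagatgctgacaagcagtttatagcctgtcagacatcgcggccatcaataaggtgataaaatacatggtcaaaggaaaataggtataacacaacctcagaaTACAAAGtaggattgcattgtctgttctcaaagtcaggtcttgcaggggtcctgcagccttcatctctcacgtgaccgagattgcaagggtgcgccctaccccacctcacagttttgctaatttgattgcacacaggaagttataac
Axin2: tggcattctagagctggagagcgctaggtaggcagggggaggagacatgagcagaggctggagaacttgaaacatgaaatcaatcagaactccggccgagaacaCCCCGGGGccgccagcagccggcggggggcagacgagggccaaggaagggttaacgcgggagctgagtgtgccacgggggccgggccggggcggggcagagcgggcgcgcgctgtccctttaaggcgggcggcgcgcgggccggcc
Nkd1: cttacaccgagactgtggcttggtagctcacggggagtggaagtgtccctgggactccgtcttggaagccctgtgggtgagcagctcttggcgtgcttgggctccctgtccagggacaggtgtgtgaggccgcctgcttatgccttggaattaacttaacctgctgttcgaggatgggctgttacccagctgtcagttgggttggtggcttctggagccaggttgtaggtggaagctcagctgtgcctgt
Nkd2: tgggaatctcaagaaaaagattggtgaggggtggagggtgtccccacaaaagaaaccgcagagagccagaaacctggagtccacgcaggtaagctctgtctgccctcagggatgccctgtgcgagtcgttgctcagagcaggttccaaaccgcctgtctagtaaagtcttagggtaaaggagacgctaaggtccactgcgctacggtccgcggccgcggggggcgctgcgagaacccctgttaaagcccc

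The Tcf7l2 window lies at chr19:55895071-55895320 on the plus strand, before a second RefSeq start inside the gene that is 153511 bases downstream of the first. Its CTTTGTT stands 8 to 14 bases before that start, and the window has 40.8% G and C. The Lef1 window, chr3:131156044-131156293 on the plus strand, precedes a start 45997 bases downstream of the first and holds TACAAAG, the reverse complement of CTTTGTA, 141 to 147 bases before it. The Axin2 window is chr11:108920099-108920348 on the plus strand, with 69.2% G and C, and holds CCCCGGGG 139 to 146 bases before the start. The windows of Nkd1 (chr8:88527383-88527632, plus strand) and Nkd2 (chr13:73847632-73847881, minus strand) both have 58.4% G and C, but 6 and 14 CpG dinucleotides. The median over all windows was 52.4% G and C and 6 CpG. A match describes the letters of a short window and is not evidence of binding, and the arrays do not tell which start was used.

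**Figure D1:**
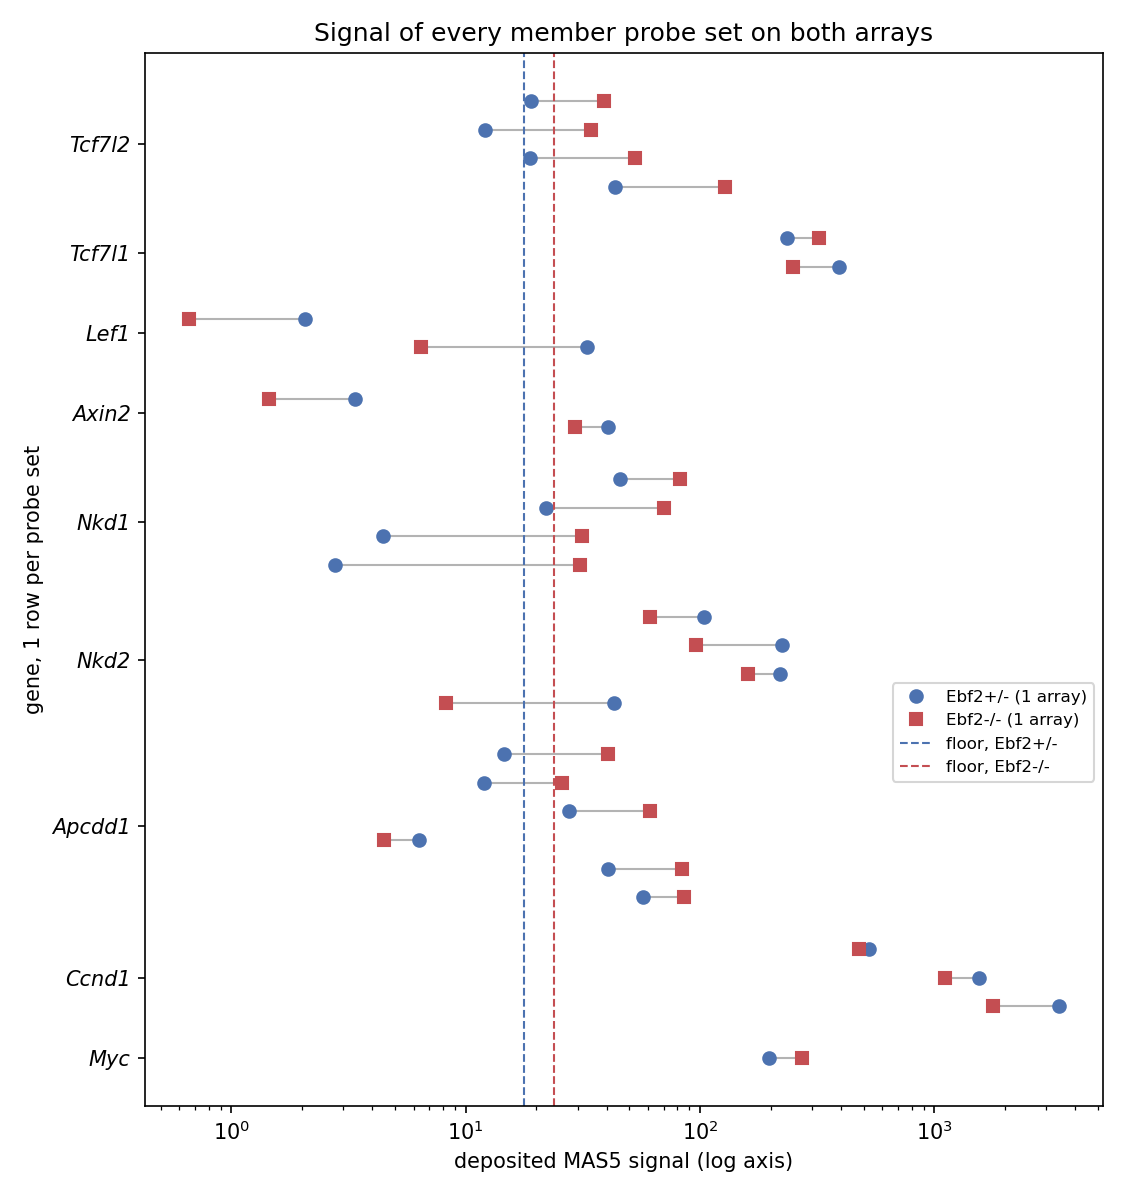
Deposited MAS5 signal (log axis) of all 28 member probe sets, 1 row each, on the single Ebf2+/- array (circles) and the single Ebf2-/- array (squares), with dashed lines at the background floors of 17.8 and 23.8. The squares lie to the right of the circles in all rows of Tcf7l2, Nkd1 and Myc and to the left in all rows of Nkd2, Ccnd1, Lef1 and Axin2.

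The TCF/LEF factors were considered first, as the proteins through which beta-catenin reaches DNA. Tcf7l2, which encodes TCF4, the TCF/LEF protein best known from gut and colorectal cells, read 43.3 in the heterozygote against 127.6 in the knockout by its brightest probe set, 1429428_at (2.95-fold higher, log2 ratio 1.56). Only 2.21% of measured genes had a higher ratio. Another probe set read 18.8 and 52.7 (2.80-fold higher) and the next 19.0 and 39.0 (2.05-fold higher). The last was under the floor in the heterozygote, at 12.1, and read 34.3 in the knockout (at least 1.92-fold higher). The 3 probe sets above the floor on both arrays therefore read higher in the knockout, with log2 ratios of 1.03 to 1.56. The bound of the last could only point that way, and 3 of the 4 heterozygote signals stood just above or under the floor. With a pseudocount of 50 in place of the floor, the log2 ratio was 0.93.

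Tcf7l1, which encodes TCF3, a mostly repressing member of the family, gave no single direction. Its probe set 1450117_at read 393 against 250.0 in the knockout (1.57-fold lower), and 1436207_at read 236 and 322 (1.36-fold higher). Both probe sets were well above the floor on both arrays, and their log2 ratios of -0.65 and 0.45 had an SD of 0.78, which is larger than the pooled value of 0.44. The mean of both log2 ratios was -0.10.

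Lef1, which encodes the lymphoid enhancer-binding factor and is itself a Wnt target, was near background. One probe set read 32.8 in the heterozygote, but 6.44 in the knockout, under the floor of 23.8, which makes it at least 1.38-fold lower. The other read 2.06 and 0.659, below the floor on both arrays. With the higher floor, the 99th percentile of the receptor probe sets, the log2 ratio of Lef1 was -0.02, and with no floor it was -2.35, so the size of this difference rests on signal in the background range. Lef1 and Tcf7 are also known from T cells. Of the 11 T cell markers with a probe set, 10 were below the floor on both arrays, among them Cd3e (3.17 and 5.69), Cd3g (8.18 and 10.4) and Cd4 (7.07 and 2.19), and the kinase Zap70 was above it in the knockout only (13.0 and 42.8).

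Within the family the log2 ratio of Tcf7l2 exceeded that of Tcf7l1 by 2.21 by the brightest probe sets and by 1.46 as a mean over the probe sets above the floor on both arrays. The SD between probe sets of 1 gene belongs to a single ratio and is no yardstick for these differences. The lowest Tcf7l2 log2 ratio above both floors was 1.03, and the higher one of Tcf7l1 was 0.45.

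**Figure D2:**
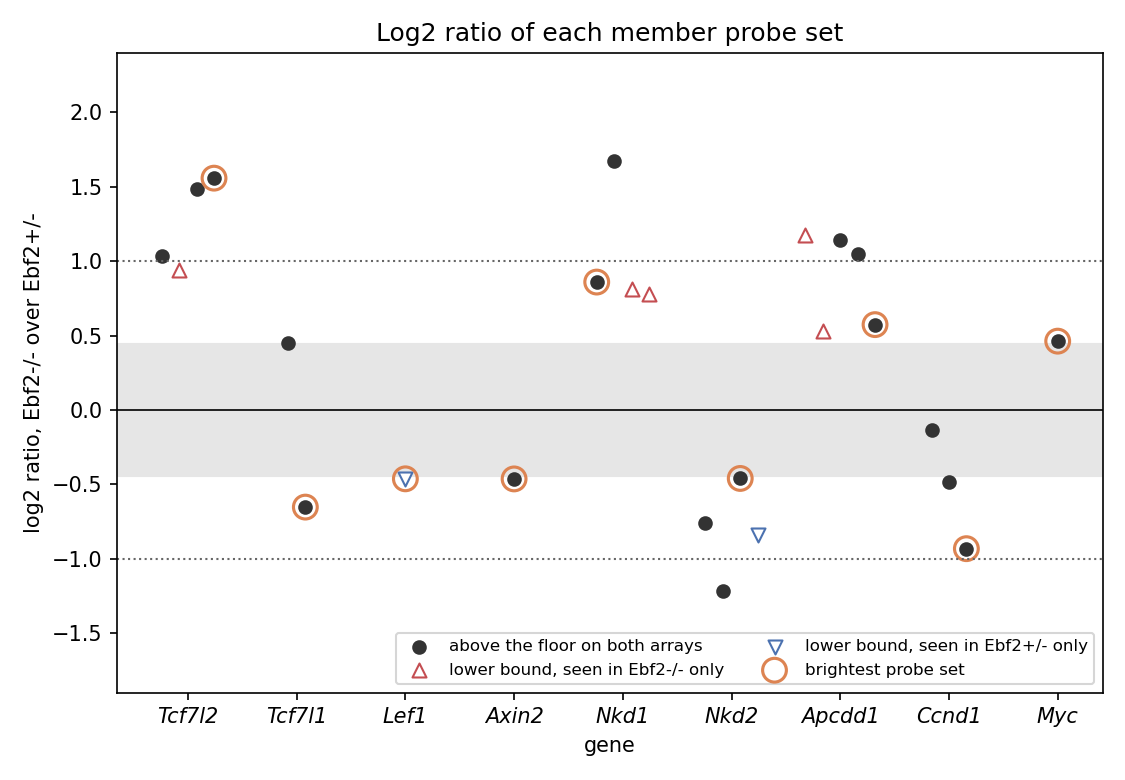
Log2 ratio of knockout over heterozygote for the 25 measured member probe sets, by gene. Filled points were above the floor on both arrays, open triangles are lower bounds, rings mark the brightest probe set, the grey band is the pooled SD between probe sets of 1 gene (0.44 either side of 0) and dotted lines mark 2-fold. Tcf7l2, Nkd1 and Apcdd1 lie above 0, Nkd2 and Ccnd1 below 0, and Tcf7l1 on both sides.

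The feedback inhibitors came next. Axin2, a scaffold of the destruction complex and a widely used reporter of the pathway, read 40.5 and 29.4 by 1436845_at, 1.38-fold lower in the knockout, a factor close to the 1.36 between probe sets of 1 gene. Its other probe set read 3.38 and 1.45, below the floor on both arrays. Of all measured genes, 15.5% had a lower ratio than Axin2, and its value in the knockout stood only just above the floor.

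Nkd1 and Nkd2 encode the naked cuticle proteins, which bind Dishevelled, the relay between the receptors and the destruction complex. The brightest Nkd1 probe set, 1417278_a_at, read 45.4 and 82.5 (1.81-fold higher in the knockout). A second, 1429506_at, read 22.0 and 70.4 (3.19-fold higher). The other two were far under the floor in the heterozygote, at 4.44 and 2.78, and above it in the knockout, at 31.3 and 30.6 (at least 1.76-fold and at least 1.72-fold higher). The 2 probe sets above the floor on both arrays read higher in the knockout, and 1 of them passed 2-fold. The bounds of the others could only point that way. As a mean over the 4 probe sets, with signals under the floor set to it, the log2 ratio of Nkd1 was at least 1.03. Probe sets ending in _s_at, _x_at or _a_at can match more than 1 transcript. Without them the brightest one left was 1429506_at, whose log2 ratio of 1.67 is the 3.19-fold already given.

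Nkd2 differed in the opposite direction. The brightest probe set, 1434275_at, read 220.2 and 160.1 (1.38-fold lower in the knockout), 1419466_at read 224 and 96.1 (2.33-fold lower), and 1419465_at read 104 and 61.4 (1.69-fold lower). The fourth read 42.7 in the heterozygote, but 8.26 in the knockout, under the floor (at least 1.79-fold lower). The 3 probe sets above the floor on both arrays read lower in the knockout, and 1 passed 2-fold. The bound of the fourth could only point that way. As a mean over the 4 probe sets, with the signal under the floor set to it, the log2 ratio of Nkd2 was at most -0.82.

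The log2 ratio of Nkd1 exceeded that of Nkd2 by 1.32 by the brightest probe sets, a 2.50-fold difference between the paralogues, and by 2.08 as a mean over the probe sets above the floor on both arrays. Those probe sets had log2 ratios of 0.86 to 1.67 for Nkd1 and of -1.22 to -0.46 for Nkd2. They come from the same arrays and are not replicates.

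Apcdd1, a membrane glycoprotein that binds Wnt and LRP and blocks the pathway at the cell surface, was dim on both arrays. Its brightest probe set, 1454822_x_at, read 57.4 and 85.4 (1.49-fold higher in the knockout). The next 2 read 40.3 and 83.4 (2.07-fold higher) and 27.7 and 61.1 (2.20-fold higher). A pair of probe sets were above the floor in the knockout only, with 14.6 and 40.3 (at least 2.26-fold higher) and 11.9 and 25.8 (at least 1.45-fold higher). The sixth, with 6.35 and 4.50, exceeded neither floor. Thus all 3 probe sets of Apcdd1 above the floor on both arrays read higher in the knockout, and 2 of them passed 2-fold, while the brightest did not. The bounds of the pair could only point that way. The 3 above the floor on both arrays end in _x_at, a name given to probe sets that may cross-hybridize. Without them the brightest one left was 1418382_at, above the floor in the knockout only, with a log2 ratio of at least 1.18. The other bound was at least 0.53.

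The growth genes differed from each other as well. Ccnd1 read 3401 and 1782 by its brightest probe set, 1448698_at (1.91-fold lower in the knockout, log2 ratio -0.93). Its other probe sets read 1554 and 1113 (1.40-fold lower) and 524 and 478 (1.10-fold lower). All 3 were far above the floor and read lower in the knockout, but over a range of -0.93 to -0.13 in log2. Of measured genes, 4.0% had a lower ratio than the brightest Ccnd1 probe set. After spike-in scaling Ccnd1 reached 2-fold, at a log2 ratio of -1.11, and as a mean over probe sets it was -0.52.

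Myc, which encodes a transcription factor of cell growth, had a single probe set, 1424942_a_at, with 198 in the heterozygote and 273 in the knockout (1.38-fold higher, log2 ratio 0.46). That is about the size of the SD between probe sets of 1 gene, and no second probe set was there to set beside it.

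Counted by probe set, 7 of the 25 measured member probe sets (28.0%) were at least 2-fold higher in the knockout, against 6.58% of the 20401 measured probe sets on the array, and 1 (4.0%) was at least 2-fold lower, against 3.61%. The 7 belong to Tcf7l2, Apcdd1 and Nkd1 alone, and probe sets of 1 gene read the same RNA, so they are not independent. They include 1418382_at of Apcdd1, a bound seen in the knockout only, which could only point higher. Of the 18 member probe sets above the floor on both arrays, 6 were at least 2-fold higher and 1 lower. The share over the array was not counted for such probe sets. Scaling to the spike-in transcripts subtracts 0.18 from every log2 ratio, which moves the median over genes detected on both arrays to -0.17. It changed the split of member probe sets to 4 higher and 3 lower, and that of all genes to 528 higher and 625 lower. The members with at least 3 probe sets that gave a ratio were 5, and all 5 had every such probe set on the same side: 3 genes higher and 2 lower. Over the array, 17.5% of the 1888 genes with that many had all of them higher and 20.9% all lower. Both counts include bounds, whose side is set by the array above its floor. Above the floor on both arrays, Nkd1 had only 2 probe sets.

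**Figure D3:**
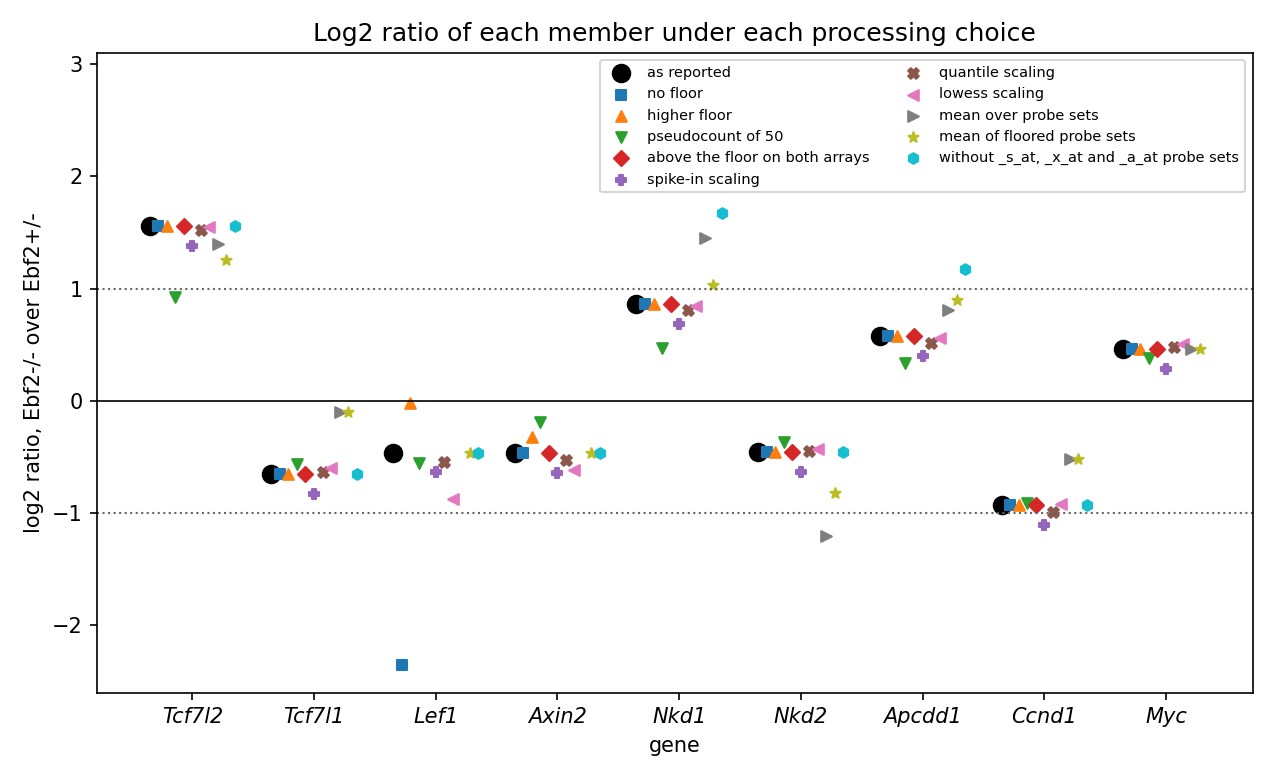
Log2 ratio of knockout over heterozygote for each of the 9 members as reported (large black points) and under each other processing choice that gave a ratio for it (small symbols), with dotted lines at 2-fold. No point of a member crosses 0, and Tcf7l2 falls below 2-fold only with a pseudocount of 50, at 0.93. No choice takes the other Tcf7l1 probe set alone, which read higher.

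Most genes for the upstream proteins that control beta-catenin had ratios near 1. Of 13 measured genes of beta-catenin and its destruction complex, 1 was at least 2-fold higher in the knockout (7.69%) and 0 were lower by that much. Their median log2 ratio was -0.01. The one past 2-fold was Btrc, the ubiquitin ligase subunit that recognizes phosphorylated beta-catenin, at 44.0 and 178.8 (4.06-fold higher), but that probe set ends in _a_at and the only other one with a ratio gave a log2 ratio of 0.37. Its relative Fbxw11 read 1899 and 1110 (1.71-fold lower), although 2 of its 3 probe sets with a ratio read higher. The kinase Gsk3b read 246 and 368 by its brightest probe set, under 2-fold, but its 6 probe sets ranged in log2 ratio from -0.68 to 1.20, with 5 higher and 1 lower. The kinase Csnk1e read 132 and 194. Beta-catenin itself, Ctnnb1, named after its values were seen, read 4802 and 4074, and all 3 of its probe sets read lower in the knockout, with log2 ratios of -0.83 to -0.24. Axin1, the relative of Axin2 that is not a Wnt target, also named after its values were seen, read 212.4 and 211.6.

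Among 20 measured nuclear partners of beta-catenin and TCF, 13 read higher in the knockout and 7 read lower. Over all measured genes these counts were 5526 and 5650. The median log2 ratio of the partners was 0.34, and 1 of them reached 2-fold in the higher direction (5.0%) and 0 in the lower. This was Tle5, a short Groucho relative that lacks the repressing part of its family, at 195 and 852 by its single probe set, which ends in _a_at (4.38-fold higher). The full-length co-repressors, picked out once their values were known, were under 2-fold by their brightest probe sets: Tle1 read 87.4 and 123.7, Tle2 69.1 and 97.5, Tle3 179 and 164, and Tle4 41.1 and 28.2. Another Tle3 probe set read 3.53 and 41.0, under the heterozygote floor, with a log2 ratio of at least 1.20. The beta-catenin antagonist Cby1 read 118 and 65.5 (1.81-fold lower), the co-activator Bcl9l 63.0 and 112.8 (1.79-fold higher) and the chromatin remodeller Chd8 167 and 256 (1.53-fold higher).

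Other genes described as targets of canonical Wnt signalling had ratios past 2-fold in both directions. Their range was wider than that of the members, but a range grows with the number of genes, and the members are only 9. Of 30 measured, 6 were at least 2-fold higher in the knockout (20%) and 5 were lower by that much (16.7%), against the same 6.30% and 3.46% of all measured genes. This list was chosen with earlier results of these data known, so these shares cannot be read as an enrichment. Their median log2 ratio was 0.30. Higher were the R-spondin receptor Lgr5 (61.8 and 782, 12.7-fold), the transcription cofactor Lbh (44.6 and 168, 3.78-fold), the activin antagonist Fst (331 and 919, 2.77-fold) and the aggrecan-cleaving protease Adamts5 (945 and 2173, 2.30-fold). Another Lbh probe set above both floors read 60.4 and 84.3, a log2 ratio of 0.48, and the third gave a bound of at least 0.85. The tight-junction protein Cldn1 (0.734 and 44.8, at least 2.51-fold) and the growth factor Fgf18 (1.75 and 39.2, at least 2.20-fold) were above the floor in the knockout only. The Cldn1 value comes from a probe set ending in _a_at, and the other 3 probe sets of Cldn1 were below the floor on both arrays.

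Lower were Tnfrsf11b, which encodes osteoprotegerin (122 and 23.0, at least 5.11-fold), the homeobox genes Msx2 (992 and 200.5, 4.95-fold) and Msx1 (138 and 54.5, 2.53-fold), the adhesion molecule Nrcam (108 and 36.4, 2.97-fold) and the prostaglandin synthase Ptgs2 (198 and 87.0, 2.28-fold). The feedback inhibitors that are closest in role to the members, also picked out once their values were known, were dim. The Wnt deacylase Notum read 31.0 and 44.0, and the ubiquitin ligase Znrf3 read 44.7 and 34.6, both under 2-fold. Its relative Rnf43 (0.834 and 15.0), the antagonist Dkk1 (1.57 and 6.92) and the target transcription factor Sp5 (8.37 and 4.31) were below the floor on both arrays.

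**Figure D4:**
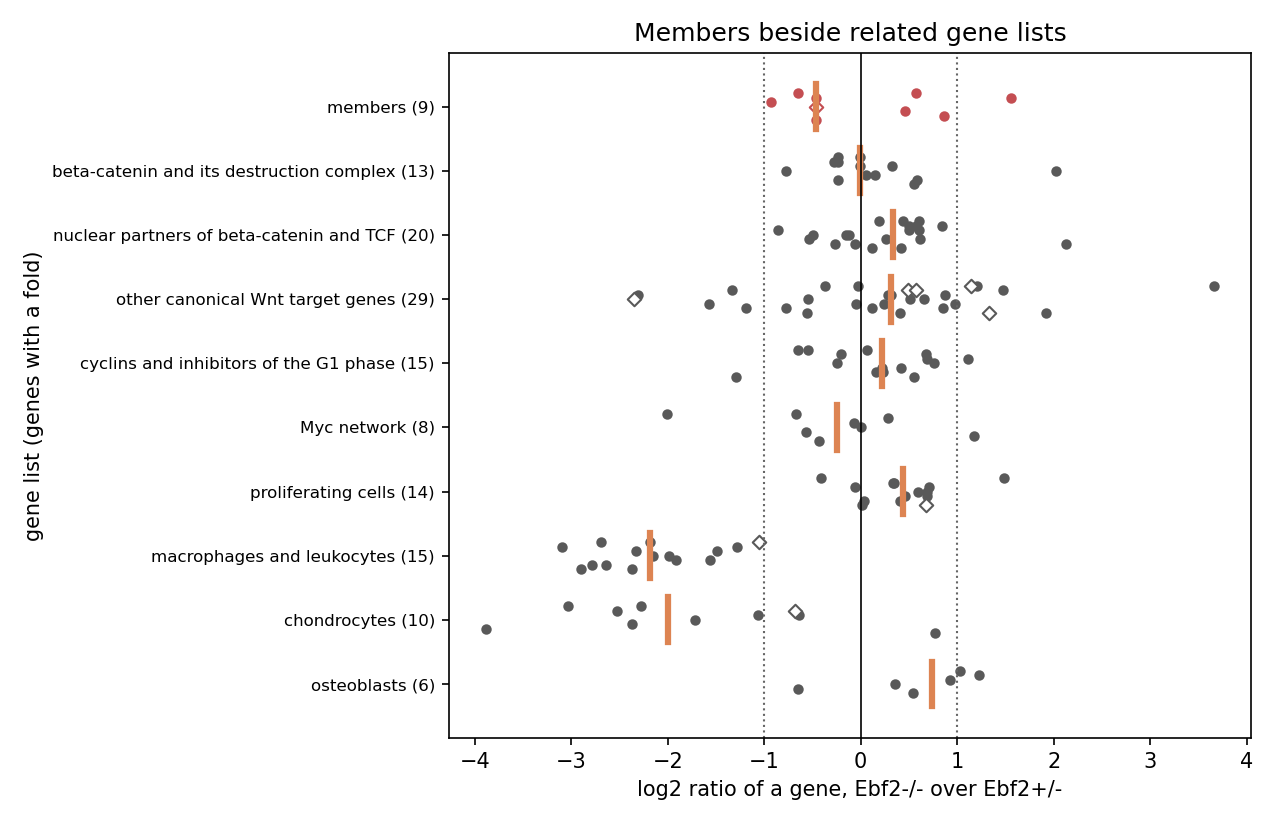
Log2 ratio of knockout over heterozygote for each gene with a ratio in the members' list (top) and in related lists, with open diamonds for lower bounds, an orange bar at each list's median over these genes and dotted lines at 2-fold. The members lie between -0.93 and 1.56, and the macrophage and leukocyte genes all lie below the 2-fold line, with a median of -2.18.

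Partners of cyclin D1 and Myc were read beside them. Of 16 measured cyclins, kinases and inhibitors of the G1 phase, 1 passed 2-fold in each direction (6.25% each). Cdk6, a kinase that cyclin D1 activates, read 215 and 87.8 (2.45-fold lower), with a log2 ratio of -0.90 by its other measured probe set, and the inhibitor Cdkn1c read 119.6 and 258.6 (2.16-fold higher). Cyclin E2 (Ccne2) read 56.0 and 94.5 and cyclin E1 (Ccne1) 122.0 and 196. The D-type relative Ccnd2, named after its values were seen, read 4554 and 3126 (1.46-fold lower), with 6 of its 7 probe sets lower, and Ccnd3 read 501 and 436.

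Of 8 measured genes of the Myc network, 1 passed 2-fold in each direction. Max, the obligate partner of Myc on DNA, read 109 and 27.2 by its single probe set (4.02-fold lower), and its knockout signal stood just above the floor. The Max-binding repressor Mxd3 read 35.7 and 80.5 (2.26-fold higher), but the mean over its 3 probe sets, with the signal under the floor set to it, gave a log2 ratio of 0.49, under 2-fold. Mxi1 read 193 and 121, and Mxd1 35.5 and 23.9.

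Most markers of dividing cells read slightly higher in the knockout by their brightest probe set. Of 14 measured, 12 read higher in the knockout and 2 read lower. Over all measured genes these counts were 5526 and 5650. The 12 include Tyms, a bound seen in the knockout only (11.2 and 28.5), and Mcm3 and Mcm5, with log2 ratios of 0.03 and 0.02. Probe sets of Mcm3 and of Mcm6 differed in direction. The median log2 ratio of the markers was 0.43, and 0.26 with spike-in scaling. The mitotic kinase Aurkb was the 1 gene past 2-fold (42.2 and 117.9, 2.79-fold), with a log2 ratio of 0.86 by its other probe set. Ccna2 read 404 and 662, Cdk1 578 and 932, and Mcm2 187 and 301, all under 2-fold.

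Markers of other cell types also differed between the same arrays. The 15 macrophage and leukocyte genes all passed 2-fold in the lower direction, with signals of 49.6 to 2780 in the heterozygote and 7.80 to 702 in the knockout. Their summed signal was 8899 and 2083. Among 11 measured chondrocyte genes, 7 passed 2-fold, each of them lower in the knockout, and their list had a summed signal of 17836 and 5864. Among 6 measured adipocyte genes, 5 passed 2-fold as higher and 1 as lower, and the list's summed signal was 818 and 2893. Of 10 endothelial genes with a probe set, Kdr, Tek and Eng were measured, and Pecam1 (1.40 and 0.724) and Cdh5 (6.06 and 10.7) were below the floor on both arrays. The part of these cell types in the members' ratios was not tested.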

How the data were processed

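The members, gene lists and rules were chosen with earlier results of these data known. The authors deposited 1 MAS5 signal per probe set and array, a linear intensity; the submitters' processing notes name MAS5 without a version. Trimmed by 2% at either end, the deposited intensities averaged 100.001 on both arrays, so the values share a common scaling target; a change common to most genes is hidden by this. The number of arrays limits the precision.

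Symbols came from the platform annotation (34958 probe sets with 1 symbol, 932 with several, 9211 with none). Each gene was represented by its brightest probe set, judged by mean log2 signal over both arrays. No test was possible with 1 array per genotype. The rule for named genes takes all members and, from each list, the 4 measured genes with the largest ratio and those past 2-fold, of which those that matter are printed; others are marked in the text. No fold is given where the signal did not exceed the other array's floor (609 genes), and such list members enter medians at the floor. Alternatives were the floor, a pseudocount, 3 scalings and the choice of probe sets. Python 3.11.15 and pandas 2.3.3 were used.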

Additional observations from a re-analysis of the deposited data

How the results depend on the processing

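With 1 array per genotype no array could be left out. No paired analysis was possible because each genotype has 1 array and the values come from no test. No member's log2 ratio changed sign under any alternative that gave it a ratio. Dropping the floor, adding a pseudocount or keeping only genes above both floors cannot reverse a sign, since the probe set stays the same. No alternative took the other Tcf7l1 probe set alone, which read higher (0.45 against -0.65), so the direction of Tcf7l1 remains unsettled. The count of members at least 2-fold higher was 1 as reported, 0 with a pseudocount of 50 and 2 when probe sets were averaged. It was also 2 when they were averaged after setting signals under the floor to it (chosen after seeing the data). Leaving out those ending in _s_at, _x_at or _a_at gave 3, each by the brightest probe set left, which for Apcdd1 was a bound. The count at least 2-fold lower was 0 as reported, and 1 with no floor (Lef1), with spike-in scaling (Ccnd1) and with the mean over probe sets without a floor on each (Nkd2, at a log2 ratio of -1.20, against -0.82 when each was floored first). The median of the members was 0.0012 over those above the floor on both arrays and 0.46 with the mean over probe sets, which leaves out Axin2 and Lef1. Counts of probe sets, whose alternatives were chosen after seeing the data, were 11 higher and 3 lower with no floor, 0 and 0 with a pseudocount of 50 and 4 and 3 with spike-in scaling; lowess scaling gave 2 lower. Signals near the floor limit Lef1, Axin2, Nkd1, Apcdd1 and Tcf7l2 in the heterozygote or the knockout. Among all genes, 742 higher and 408 lower became 997 and 932 with no floor and 280 and 134 with a pseudocount of 50. Of the other genes named as past 2-fold in the Wnt, G1, Myc network and proliferation lists, Cldn1, Fgf18, Msx1, Nrcam, Ptgs2, Cdk6, Cdkn1c, Mxd3 and Aurkb were under 2-fold with a pseudocount of 50. Fgf18, Cdkn1c and Mxd3 were under it with spike-in scaling, Cldn1 and Fgf18 with lowess scaling, and Fgf18 with the higher floor. Averaging probe sets took Cdk6 and Mxd3 under it, to log2 ratios of -0.84 and -0.27, and left Btrc, Cldn1 and Nrcam without a ratio; with each probe set floored first, only Mxd3 among these named genes was under it, at 0.49. Without probe sets ending in _s_at, _x_at or _a_at, Btrc was at 0.37 and Tle5, Cldn1, Msx1 and Aurkb had no ratio. Fgf18, Cldn1 and Tnfrsf11b were not above the floor on both arrays.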
